A study of Cavia porcellus with 72 samples.

Results

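The effect of prenatal betamethasone on hippocampal mRNA was compared between a first generation (F1), whose mothers were treated while pregnant, and a second generation (F2), which descends from F1 males. The measure was the difference of 2 effects for each gene, the log2 fold change of sGC against control animals in F2 minus the same fold change in F1. A positive difference therefore means a higher response in F2 and a negative difference a higher response in F1. It was fitted on the 23 F1 and F2 libraries, out of 36 RNA libraries and 72 samples in the series, for genes listed in both count tables. There were 11469 such genes, of 11651 in the F1 table and 11716 in the F2 table, and 11352 of them had enough reads to be tested.

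All animals were female Dunkin-Hartley guinea pigs killed on postnatal day 40, and the right hippocampus was sequenced. The F1 control group held 6 daughters of saline-treated dams and the F1 sGC group 5 daughters of dams that received repeated courses of betamethasone, a synthetic glucocorticoid (sGC), in the later part of gestation. The labels call this treatment Beta. The F2 control group (6 animals) and the F2 sGC group (6 animals) were daughters of F1 males of those lineages mated with females from outside the experiment, so no F2 mother had been exposed. According to the study's methods the females of a group came from independent mothers. Only females and only the paternal line entered these groups.

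Betamethasone crosses the placenta and binds the glucocorticoid receptor, a transcription factor that is held in the cytoplasm by heat shock proteins and moves to the nucleus when it binds its ligand. The hippocampus is rich in this receptor and in the mineralocorticoid receptor, and it takes part in the feedback that shuts off the stress hormone axis. An F1 fetus meets the drug itself, and so do the germ cells within it that later give rise to F2.

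Library totals lay between 14764623 and 19767033 counted reads in F1 control, between 14814534 and 18997444 in F1 sGC, between 14006523 and 17487415 in F2 control and between 13507449 and 16282609 in F2 sGC animals. The libraries separated by generation on the first principal component, which held 72% of the variance. Mean control levels differed more than 2-fold between F2 and F1 for 438 of 11446 genes found in all 3 generations (range from -10.3 to 8.27 on the log2 scale). The same comparison of F3 with F1 controls gave 2 genes. A gap that sits in the F2 table alone cannot be told apart from a difference in how that table was counted, so levels are not compared between generations here, and each effect is a contrast within 1 table. Among the tested genes 441 (3.88%) had such a gap, and 5 of these are among the genes called below, CLPB, GABRG1, MIB1, SLC24A2 and ZFP57. Markers of the hippocampus were detected in each library, with summed levels of 8 dentate granule cell genes between 402 and 553 counts per 1e+06 reads (CPM, scaled by TMM) and of 9 pyramidal cell genes between 832 and 995 CPM. The sGC libraries numbered 32 and 35 (F1) and 33 (F2) carry numbers apart from the rest of their generation, and counts were also made without them. On the second principal component (3.59% of the variance) they lay at -10.32, -22.36 and -7.263. The other F1 libraries lay between -3.257 and 9.797 there, and the other F2 libraries between -2.167 and 4.484. Whether these libraries form a batch was not tested.

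The sGC effect differed between the generations for 135 genes at a Benjamini-Hochberg adjusted p below 0.05 from the quasi-likelihood F test of edgeR (1.19% of those tested), and a gene is named as called below where it passed this test. The difference was negative for 107 of them (0.943%) and positive for 28 (0.247%), so 79.3% were negative. Each of the 107 was higher in F1 sGC than in F1 control animals, and their median effects were 0.25 in F1 and -0.03 in F2. Each of the 28 was lower in F1 sGC animals and higher in F2 sGC animals by its fitted effect, with medians of -0.19 in F1 and 0.09 in F2. The genes were chosen on the difference of these same 2 effects, which favours opposite signs and larger medians. These signs therefore do not show a reversal in F2, where no effect passed the test by itself. Over all tested genes the median difference was -0.01 and its median standard error 0.0872. Before adjustment 1919 of them (16.9%) had a p below 0.05, the share to set beside such counts for the lists below. Scaling by library totals alone kept every sign among the 135 but called 91 genes, 42 positive and 49 negative (53.8% negative). Leaving out single libraries moved the count between 47, without F2 control replicate 2, and 274, without F2 sGC replicate 6, and without libraries 32, 33 and 35 it was 388, with the call lost for 10 of the 135. Fitting all 36 RNA libraries together called 33 genes, all among the 135, a replicate block within each generation called 41, of which 35 were among the 135, and taking out a trend with gene span, described at the end, called 13.

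**Figure D1:**
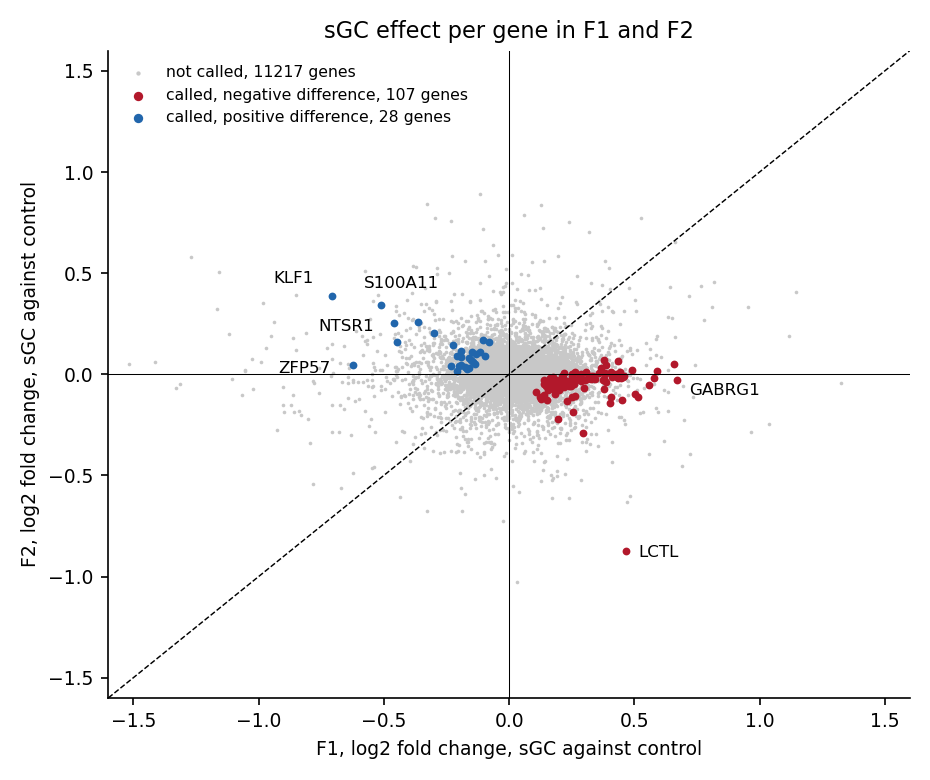
Log2 fold change of sGC against control per gene in F1 (horizontal axis) and F2 (vertical axis), with genes of an adjusted p below 0.05 for the difference coloured by its sign and the dashed line marking equal effects. The 107 genes with a negative difference lie to the right of 0 on the F1 axis with a median of -0.03 in F2, where LCTL is lowest at -0.87, the 28 with a positive difference lie to the left of 0 and above 0, and 4 genes that were not called fall outside the axes.

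The difference came mainly from F1. In the same fit 795 genes (7%) passed the test for an sGC effect in F1, 564 higher (4.97%) and 231 lower (2.03%). No gene passed it in F2. There the adjusted p was 0.983 or more for each gene, and 480 genes had a p below 0.05 before adjustment. The F1 count was 482 without F1 sGC replicate 5, 510 without F1 control replicate 5, 308 with the span trend taken out and 301 with a weight for each group in limma voom. Without libraries 32, 33 and 35 it was 536. The likelihood ratio test, DESeq2 and limma voom gave 0 genes in F2 as well when fitted here. The paper, with edgeR's likelihood ratio test, reported a few genes with reduced expression in F2 and a smaller count in F1 than this fit. The fits here took both generations together and only genes listed in both, so their counts and those of the paper are not like for like. Of the 135 genes, 124 had passed in F1. The reverse did not hold, since 671 of the 795 F1 genes had no significant difference from F2 and 15.6% had one, so for most genes that responded in F1 these data do not show that F2 responded otherwise. The F1 genes showed no common direction in F2. Their fitted F2 effect had the F1 sign in 381 of 795, and the median F2 effect was -1.21e-05 for those higher and 0.01 for those lower in F1. The libraries of the F1 groups did not overlap for 96 of the 135 genes, against 4.29% of all genes, and those of the F2 groups did not overlap for 9, against 0.379%. These shares, and the 124 genes that had passed in F1, describe the choice of genes, since the test used the same values.

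Lists of receptors, channels and adhesion proteins of the synapse are described first. GABRG1, the gamma-1 subunit of GABA type A receptors, had the smallest p of all genes. Its level was 12.4 to 15.5 CPM in F1 control animals (median 14.5) and 21.4, 21.97, 23.1, 23.9 and 23.9 CPM in the 5 F1 sGC animals. In F2 it was 27.5 to 31.3 CPM in control (median 28.5) and 24.3 to 32.7 CPM in sGC animals (median 29.2). The F1 groups were thus fully apart and the F2 groups overlapped, with a 1.59-fold rise in F1, a fitted F2 effect of -0.03 (95% CI from -0.16 to 0.10) and a difference of -0.70 ± 0.0928 (SE, adjusted p = 0.000811). GABRG1 is among the genes with a gap between the control levels of the tables (1.02 on the log2 scale). It was the 1 called gene among 20 genes of GABA receptors, synthesis and transport, whose median difference was -0.03. The likelihood ratio test and DESeq2 also called GABRD of this list, with a positive difference.

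GRM5, the metabotropic glutamate receptor 5, was the 1 called gene of 21 glutamate receptor genes, and its F1 groups did not overlap either. Levels were 50.8 to 63.1 CPM in F1 control (median 57.6), 66.4, 76.9, 79.2, 80.8 and 82.0 CPM in F1 sGC, 83.5 to 98.4 CPM in F2 control (median 90.3) and 80.6 to 99.8 CPM in F2 sGC animals (median 88.6). The rise was 1.35-fold in F1 and the difference -0.44 ± 0.0898 (adjusted p = 0.0186). In the main fit the remaining ionotropic and metabotropic receptors did not follow GRM5 as a group. Without libraries 32, 33 and 35 GRIA2 and GRIN2A were also called, both with a negative difference, and the list median was -0.04. The median difference of the list was near 0 and changed sign with the scaling.

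Among 30 postsynaptic scaffold and synaptic adhesion genes, CADM2 and NRXN3 were called (6.67%, against 1.19% of all genes) and 22 had a negative fitted difference. Over all tested genes 5851 of 11352 differences were negative, the share to set beside such counts in the lists below. The median span of this list was 82.1 kb, against 28.5 kb over all genes, and longer genes had more negative differences, as described at the end. CADM2, an immunoglobulin-type adhesion molecule, was at 84.4 to 103 CPM in F1 control (median 95.2) and at 121.4, 122.75, 128.02, 132.57 and 135.25 CPM in F1 sGC animals. In F2 its groups overlapped, at 129 to 158 CPM in control (median 138) and 130 to 148 CPM in sGC animals (median 139). Its difference was -0.45 ± 0.0729 (adjusted p = 0.00589). NRXN3, a presynaptic neurexin, differed by -0.43 ± 0.101 (adjusted p = 0.0347), but 1 F1 sGC animal at 33.4 CPM lay within the control range of 28.2 to 37.1 CPM, and the call held in 9 of 23 fits that left out a library. RAB3C, a small GTPase of synaptic vesicles, was the 1 called gene of 77 SNARE and vesicle genes. It was 1.38-fold higher in F1 sGC animals, at 153 to 209 CPM against 122 to 152 CPM, and its difference was -0.47 ± 0.101 (adjusted p = 0.022).

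Of 61 potassium channel genes 4 were called (6.56%), each negative, where 1.19% of all genes were called and 0.943% with a negative difference. Both KCNA2 and KCNS1 of the 4 were still called after the trend with gene span was taken out, and KCND3 and KCNJ6 were not. KCNA2, the Kv1.2 delayed rectifier of axons, stood at 276 to 316 CPM in F1 control (median 294) and at 323, 336, 350, 357 and 361 CPM in F1 sGC animals. Its F2 groups overlapped at 344 to 389 CPM and 340 to 362 CPM, and the difference was -0.29 ± 0.0549 (adjusted p = 0.0164). KCNA2 is a compact gene and was called in every fit tried. KCNJ6, the GIRK2 inward rectifier that opens on signals from G protein-coupled receptors, was at 109 to 142 CPM in F1 control (median 120) and at 153, 166.1, 180, 190 and 227 CPM in F1 sGC animals. In F2 it was 104 to 142 CPM in control and 103 to 139 CPM in sGC animals. The F1 groups were apart, with a 1.49-fold rise, while the F2 groups covered nearly the same range, and the difference was -0.60 ± 0.123 (adjusted p = 0.0193). KCND3, the Kv4.3 channel of A-type currents, had a difference of -0.23 ± 0.0536 (adjusted p = 0.0347), called in 10 of 23 fits that left out a library. KCNS1, a modulatory subunit, is described below since its F2 effect was the larger. No gene of 18 calcium and 11 sodium channel genes was called by the quasi-likelihood test, with 4 and 3 below an unadjusted p of 0.05. Limma voom called none, the likelihood ratio test and DESeq2 each called CACNA1I and no sodium channel gene, and without libraries 32, 33 and 35 the calls were CACNA1B and the sodium channel genes SCN3A, SCN8A and SCN9A. All but 1 of 11 sodium channel genes had a negative fitted difference, with a median of -0.16, and the smallest adjusted p was 0.147 (SCN4B, difference -0.28).

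**Figure D2:**
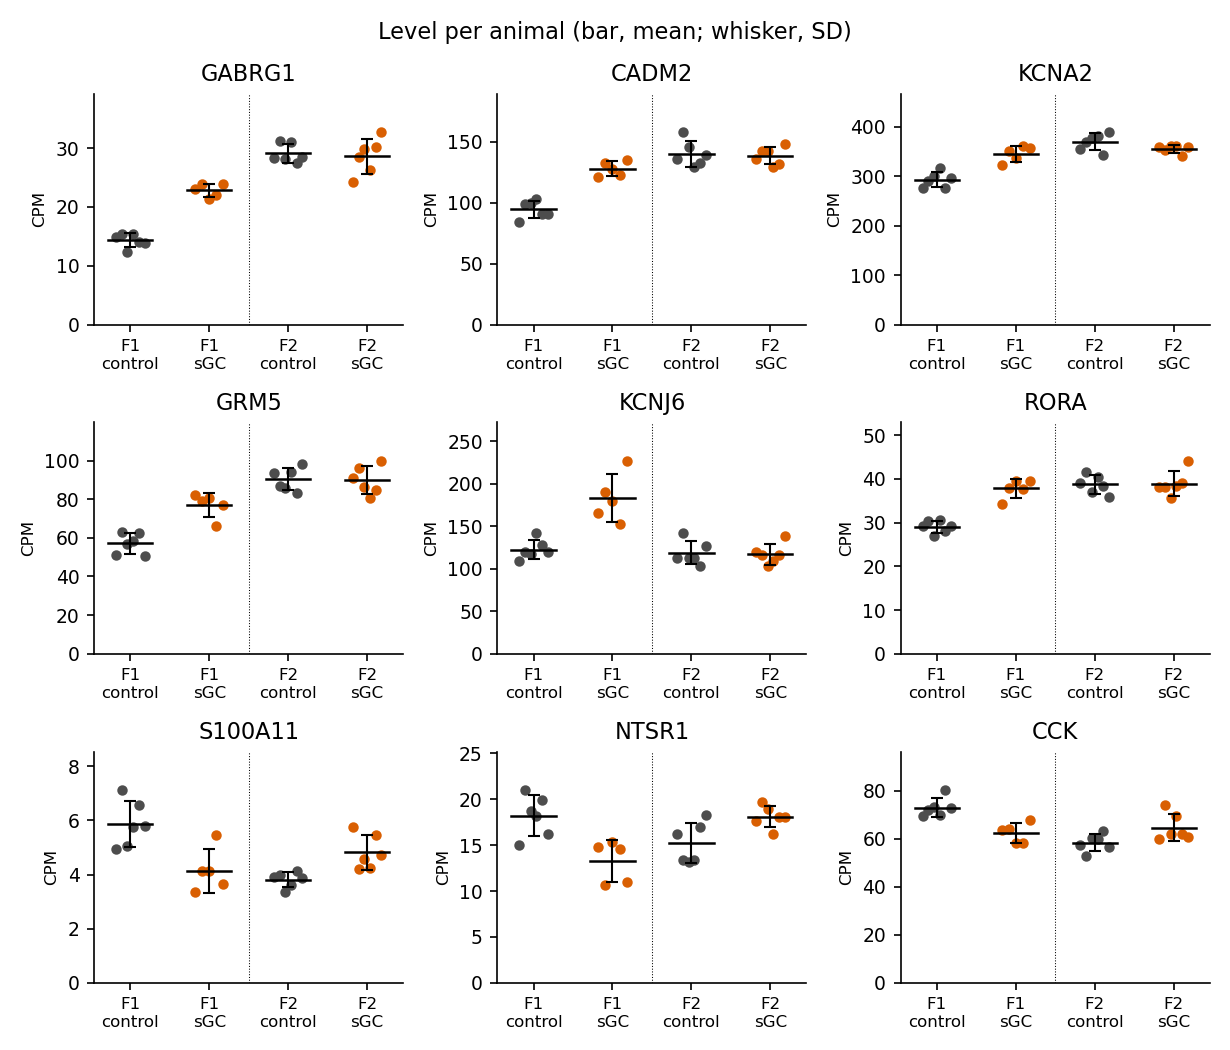
Level of 9 genes in CPM per animal (points), with the group mean (bar) and SD (whisker), in F1 control, F1 sGC, F2 control and F2 sGC animals. The dotted line separates the tables, between which levels are not compared. In the upper 6 panels F1 sGC animals lie above F1 control animals, and in the lower 3 most of them lie below, while the F2 groups overlap except for S100A11.

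The next genes are further ones of the 15 negative calls with the smallest p, taken by that rule and not from a list. PIK3C2A and PIKFYVE are kinases that make phosphoinositides of the endosomal system. PIK3C2A was at 17.4 to 21.3 CPM in F1 control and 25.5, 25.9, 27.9, 29.5 and 29.7 CPM in F1 sGC animals, against 32.5 to 40.6 and 30.2 to 38.0 CPM in F2, and its difference was -0.61 ± 0.0957 (adjusted p = 0.00565). PIKFYVE differed by -0.41 ± 0.0764. ARHGEF12, an exchange factor of the GTPase RhoA, stood at 130 to 152 CPM in F1 control and at 186.7, 192, 192, 197 and 205 CPM in F1 sGC animals, with F2 groups of 201 to 234 and 204 to 248 CPM and a difference of -0.40 ± 0.0647 (adjusted p = 0.00589). The F1 groups of all 3 genes were apart. RAPGEF2, an exchange factor of Rap GTPases, differed by -0.25, the Rab exchange factor DENND4A by -0.30 and DOK6, an adaptor of receptor tyrosine kinases, by -0.47, with adjusted p of 0.0164, 0.0129 and 0.0161. CAMSAP2, which caps the minus ends of microtubules, differed by -0.28 (adjusted p = 0.0181).

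The motor proteins MYO5A and KIF5A, which carry cargo along actin and along microtubules of axons, were the 2 called genes of 57 motor genes (3.51%, against 1.19% of all genes). Of the 57, 43 had a negative fitted difference, and their median span was 51.3 kb, against 28.5 kb over all genes. MYO5A was at 427 to 470 CPM in F1 control and at 491, 499, 501, 559 and 585 CPM in F1 sGC animals, and differed by -0.28 ± 0.0646 (adjusted p = 0.0325). It was also the 1 called gene of 163 candidate genes of the study as listed here, 0.613% of that list against 1.19% of all genes. KCNJ6 and NCOA2, which the paper also names from its candidate list, are not among these 163, and KCNJ6 was called. Without libraries 32, 33 and 35 the list had 2 positive and 7 negative calls, where 84 and 304 were called over 11396 genes. KIF5A differed by -0.28 ± 0.0691 (adjusted p = 0.0429) with overlapping groups in both generations. Both calls were lost in part of the fits that left out 1 library, MYO5A in 9 and KIF5A in 16 of 23.

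The lists of transcription and chromatin genes are not complete, and ATRX (-0.30), a chromatin remodeller, and WHSC1L1 (-0.26), a histone methyltransferase, were called outside them (both named after the calls were seen). KAT6A, a histone acetyltransferase, was the 1 called gene of the 87 histone modifiers and chromatin remodellers listed, at 32.6 to 39.9 CPM in F1 control, 44.0, 45.3, 47.0, 47.7 and 47.8 CPM in F1 sGC, 48.9 to 55.0 CPM in F2 control and 45.4 to 56.0 CPM in F2 sGC animals. Its difference was -0.41 ± 0.0712 (adjusted p = 0.0129), the list's median was -0.05, and 57 of the 87 were negative. RORA, a nuclear receptor that drives the clock gene ARNTL, was the 1 called gene of 18 circadian genes, with 26.9 to 30.6 CPM in F1 control, 34.4, 37.8, 37.9, 39.4 and 39.6 CPM in F1 sGC and overlapping F2 groups of 35.8 to 41.7 and 35.6 to 44.1 CPM (difference -0.38 ± 0.0723, adjusted p = 0.0181). RORA also stands on the thalamic marker list, where it was the 1 called gene of 8. No gene of DNA methylation, of 17 tested, was called by the quasi-likelihood test (4 below an unadjusted p of 0.05), by the likelihood ratio test or by limma voom, while DESeq2 called MBD5 and leaving out libraries 32, 33 and 35 called MBD3 and MBD5. Of 168 zinc finger genes ZNF106 (-0.29) and ZFP57 (0.67) were called. ZFP57, which keeps imprinted regions methylated, was lower in F1 sGC animals, at 22.6 to 34.6 CPM against 36.1 to 53.8 CPM, and overlapped in F2, at 132.87 to 205.08 CPM against 131.94 to 191.03 CPM. Its control level differed by 2.02 on the log2 scale between the tables, and it was called in 7 of 23 fits that left out a library.

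The remaining called negative genes on a list were DNAJB14, a cochaperone of the endoplasmic reticulum (-0.25, 1 of 64 chaperone genes), ATP6AP1L, named for its likeness to a proton pump subunit (-0.37, 1 of 17), ITGB8, an integrin subunit (-0.30, 1 of 76 matrix genes), and COL4A3, a basement membrane collagen (-0.63, 1 of 34 collagens). COL4A3 was higher in F1 sGC animals, where 23 of the 34 collagens were lower (median -0.09). In F2 27 of the 34 were lower (median -0.11), and the median difference of the list was 0.04. The calls of ATP6AP1L and COL4A3 held in 7 and 5 of 23 fits that left out a library, and those of DNAJB14 and ITGB8 in each of the 23. ITGB8 stood clear of the F1 controls, at 144.1 to 166.55 against 122.86 to 132.05 CPM. The other genes of the top 15 negative calls were PCMTD1, ERICH3 (-0.52) and TULP4 (-0.32).

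The 28 genes with a positive difference included a neuropeptide and a peptide receptor, 2 of the 33 neuropeptide and receptor genes tested (6.06%, against 1.19% of all genes called and 0.247% with a positive difference). CCK encodes cholecystokinin, a peptide of hippocampal interneurons. It was at 69.4 to 80.3 CPM in F1 control (median 72.3) and at 58.2, 58.3, 63.7, 64.3 and 68.0 CPM in F1 sGC animals, fully below. In F2 the order was the opposite with overlap, 52.9 to 63.4 CPM in control (median 58.7) and 59.8 to 73.9 CPM in sGC animals (median 62.0). The difference was 0.37 ± 0.079 (adjusted p = 0.022), with 0.86-fold in F1 and 1.11-fold in F2. NTSR1, the high-affinity neurotensin receptor, was at 15.1 to 21.01 CPM in F1 control, 10.7, 11.0, 14.6, 14.8 and 15.3 CPM in F1 sGC, 13.2 to 18.3 CPM in F2 control and 16.3 to 19.7 CPM in F2 sGC animals. Both pairs of groups overlapped slightly, and its difference was 0.71 ± 0.146 (adjusted p = 0.0191). The list as a whole had a median difference of 0.12, with 24 of 33 genes positive.

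S100A11, a calcium-binding protein, had the largest positive difference of the 15 positive genes with the smallest p, 0.86 ± 0.171 (adjusted p = 0.0181). Its level was 4.96 to 7.12 CPM in F1 control, 3.35, 3.65, 4.12, 4.12 and 5.47 CPM in F1 sGC, 3.35 to 4.13 CPM in F2 control and 4.22 to 5.78 CPM in F2 sGC animals. The F2 groups did not overlap, but the F2 effect did not pass the adjustment over all genes. In F1 a single sGC animal reached into the control range. IER5L, a relative of an immediate early gene, had the same arrangement, 6.40 to 8.83 CPM in F1 control and 5.31 to 7.26 CPM in F1 sGC, 3.71 to 5.00 CPM in F2 control and 5.05 to 5.78 CPM in F2 sGC animals (difference 0.62 ± 0.132, adjusted p = 0.022). For WNT11, a secreted Wnt ligand, the F1 sGC animals at 6.68 to 7.93 CPM lay below the F1 controls at 8.06 to 9.63 CPM, and the F2 sGC animals at 8.03 to 9.58 CPM overlapped their controls at 6.82 to 8.72 CPM (difference 0.51 ± 0.104, adjusted p = 0.0193). PYGO2, a coactivator of the same pathway, differed by 0.22.

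TMEM222 had the smallest p among the positive genes (0.24 ± 0.0431, adjusted p = 0.0129), with 51.2 to 53.6 CPM in F1 control, 43.7 to 46.7 CPM in F1 sGC, 43.5 to 46.2 CPM in F2 control and 45.2 to 48.5 CPM in F2 sGC animals. MAP1LC3A, an LC3 protein of autophagosomes, differed by 0.24 ± 0.0453 (adjusted p = 0.0164). Differences of 0.21 to 0.61 were found for SNAPC2, a subunit of the complex that starts small nuclear RNA genes, UBE2S, a ubiquitin-conjugating enzyme, PDIA6, a disulfide isomerase, SSU72, a phosphatase of RNA polymerase II, NFKBIE, an inhibitor of NF-kappa-B, PARD6A, a polarity protein, and CBX1, a heterochromatin protein. Their F1 effects ran from -0.45 (NFKBIE) to -0.13 (CBX1) and their F2 effects from 0.04 (SSU72) to 0.16 (NFKBIE).

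Only 4 of the 135 genes had a larger fitted effect in F2 than in F1, and LCTL, HMOX1 and ACOT8 among them were chosen for description after their values were seen. LCTL, a klotho-related glycosidase-like protein, had the largest difference of all calls, -1.34 ± 0.282 (adjusted p = 0.0206). It was at 3.38 to 6.00 CPM in F1 control and 4.42, 4.56, 4.85, 7.71 and 7.91 CPM in F1 sGC animals, and at 4.42 to 9.34 CPM in F2 control and 2.44 to 3.68 CPM in F2 sGC animals. Its F2 effect was -0.87 and the F2 groups were apart, but the F2 effect did not pass the adjustment over all genes. KCNS1 followed the same order, with 14.7 to 18.5 CPM in F1 control, 18.3 to 21.6 CPM in F1 sGC, 18.75 to 22.5 CPM in F2 control and 16.65 to 18.65 CPM in F2 sGC animals (difference -0.41 ± 0.0866, adjusted p = 0.0206). HMOX1, the stress-induced heme oxygenase, and ACOT8, a peroxisomal thioesterase, were higher in all F2 sGC animals than in all F2 controls, at 29.3 to 32.7 against 23.5 to 29.02 CPM and 26.9 to 30.98 against 24.6 to 26.8 CPM. Their differences were 0.27 (adjusted p = 0.0407) and 0.24 (adjusted p = 0.0403), and in F1 their groups overlapped. These calls held in 7 (HMOX1) and 6 (ACOT8) of 23 fits that left out a library. PCMTD1, related to an enzyme of protein repair, was the 1 gene of the 15 leading negative calls with both pairs of groups apart. It was 103.7 to 111.5 CPM in F1 sGC above 89.6 to 103.2 CPM in F1 control, and 105 to 114 CPM in F2 sGC below 115 to 120 CPM in F2 control animals (difference -0.24 ± 0.0473, adjusted p = 0.0181). The F2 effects of KCNS1, HMOX1, ACOT8 and PCMTD1 did not pass the quasi-likelihood test either (adjusted p = 0.983 for each). Over all genes 0.379% had F2 groups apart, and these genes were described for such values.

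The glucocorticoid and mineralocorticoid receptors did not differ in their response beyond the adjustment. NR3C1, the glucocorticoid receptor, was at 91.8 to 101.94 CPM in F1 control and at 102.8, 104, 106, 110 and 119 CPM in F1 sGC animals, which did not overlap, and at 107 to 127 CPM in F2 control and 111 to 127 CPM in F2 sGC animals, which did. Its F1 effect of 0.16 passed the test (adjusted p = 0.0326), and its difference of -0.18 (95% CI from -0.31 to -0.05) did not (adjusted p = 0.158). NR3C2, the mineralocorticoid receptor, had a difference of -0.03 (from -0.14 to 0.08). FKBP5, the cochaperone whose transcription the receptor drives, had a difference of -0.19 (from -0.44 to 0.06), and TSC22D3, or GILZ, a further target, of -0.01 (from -0.14 to 0.12). None of the 16 receptor and cochaperone genes was called by the quasi-likelihood test (6 below an unadjusted p of 0.05), the smallest adjusted p being 0.0625 for the coactivator NCOA2 (-0.22), followed by the corepressor NCOR1 (-0.13). Limma voom called none, the likelihood ratio test called NCOA2 (adjusted p = 0.033), DESeq2 called NCOA2 and NCOR1 (adjusted p = 0.0215 and 0.00917), and without libraries 32, 33 and 35 NCOA1 was called beside them. None of 17 target genes was called by any of these tools (7 below an unadjusted p of 0.05), and TXNIP among them had a difference of 0.34 (adjusted p = 0.149). Among all tested genes 16.9% were below an unadjusted p of 0.05. SGK1 was not among the genes analysed here. Of 22 immediate early genes, which neurons transcribe within minutes of activity, none was called by any of these tools (4 below an unadjusted p of 0.05) and 20 had a positive fitted difference (median 0.11, highest 0.76). JUND (0.20) and JUN (0.20) had the smallest p. Without libraries 32, 33 and 35 JUND was called, and a replicate block within each generation called NR4A1 with a positive difference. The median effect of the list was -0.06 in F1 and 0.08 in F2. Over all genes 48.5% of fitted differences were positive.

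Lists of metabolism and protein turnover had no gene called by the quasi-likelihood test or by limma voom, and most of their fitted differences were positive. Among respiratory chain subunits 52 of 59 were positive (median 0.07, F1 median -0.08), among mitochondrial ribosomal proteins 51 of 65 (0.07), among proteasome subunits 32 of 38 (0.09), among cytosolic ribosomal proteins 38 of 51 (0.05) and among cholesterol synthesis genes 16 of 21 (0.08). The F1 medians of the mitochondrial ribosomal, proteasome and cholesterol lists were -0.09, -0.08 and -0.05. Cytosolic ribosomal proteins went otherwise, with medians of 0.03 in F1 and 0.08 in F2. Of these 51 genes 35 were higher in F1 sGC and 47 in F2 sGC animals. Over the 5 lists the members with the smallest p were NDUFA13 (0.23, adjusted p = 0.0596) and MRPS21 (-0.19, adjusted p = 0.0523). Both were called by the likelihood ratio test (adjusted p = 0.0267 and 0.0271) and by DESeq2 (0.0177 and 0.0111), which also called NDUFS6 and PSMB7. An unadjusted p below 0.05 was found for 15 respiratory chain, 18 mitochondrial ribosomal, 12 proteasome, 1 cytosolic ribosomal and 2 cholesterol synthesis genes, where 16.9% of all genes had one. NDUFAB1, a subunit of complex I that the list does not hold, was called (0.19) and was named after the calls were seen. Without libraries 32, 33 and 35 5 cytosolic ribosomal and 3 respiratory chain genes were called with a positive difference, and 1 gene in each direction on the mitochondrial ribosomal and proteasome lists. In F1 itself 8 of 59 respiratory chain and 7 of 38 proteasome genes passed the test, all lower in sGC animals, where 7% of all genes passed and 2.03% were lower. The quasi-likelihood test, DESeq2 and limma voom called no gene among 38 translation initiation factors, 130 splicing factors and helicases and 31 tRNA synthetases, whose medians were 0.05, 0.01 and 0.01 and of which 9, 20 and 1 had an unadjusted p below 0.05. The likelihood ratio test called EIF5A2 of the initiation factors, and without libraries 32, 33 and 35 there were 2 calls of initiation factors and 4 of splicing factors and helicases, each negative.

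**Figure D3:**
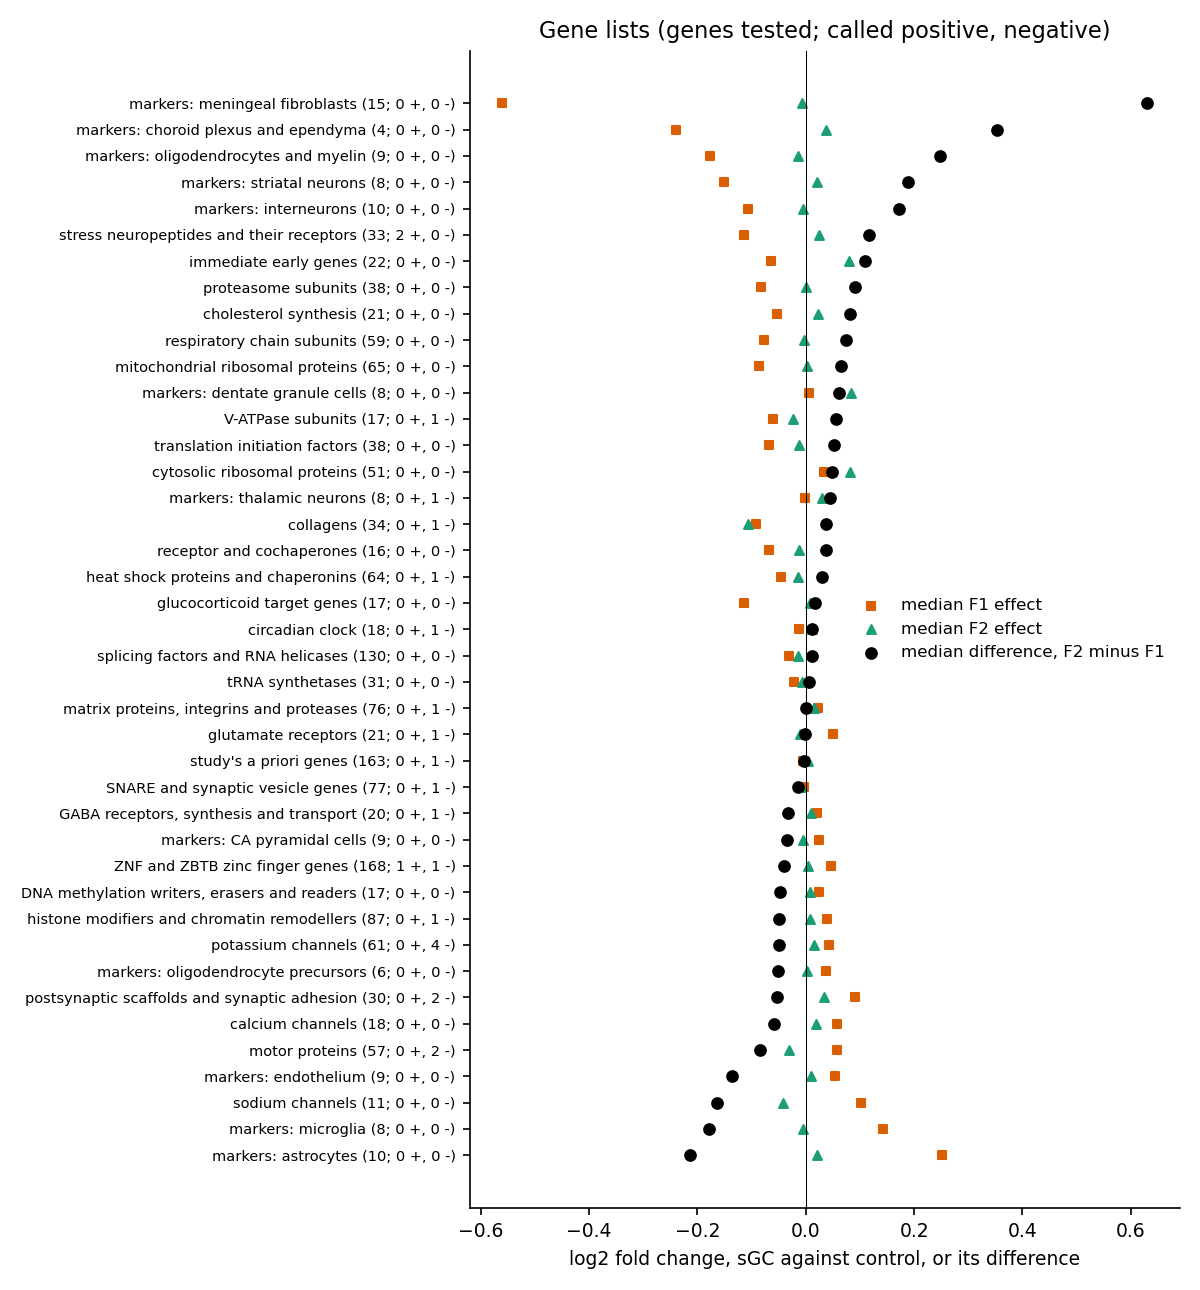
Median log2 effect in F1 (squares) and F2 (triangles) and median difference of F2 minus F1 (circles) for each gene list with at least 4 genes tested, with the number tested and the positive and negative calls in brackets. The F2 medians stay between -0.11 and 0.08, while the F1 medians run from -0.56 (meningeal fibroblast markers) to 0.25 (astrocyte markers).

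Markers of some cell types shifted in F1, and in bulk tissue fewer cells of a type and less RNA per cell cannot be told apart. The F1 medians of the dentate granule, pyramidal, oligodendrocyte precursor and thalamic lists were near 0, at 0.0051, 0.0251, 0.0373 and -0.000898. No marker gene except RORA was called by the quasi-likelihood test or by limma voom. The likelihood ratio test also called DCN, IGF2, Slc4a4, NECTIN3, CNR1 and ALAS2, and DESeq2 called Slc4a4, NECTIN3 and CNR1. NECTIN3 stands on the pyramidal cell list and CNR1, the cannabinoid receptor, on the interneuron list. All 15 meningeal fibroblast markers had a positive difference (median 0.63), the F1 median was -0.56 with 7 genes lower past the test, and the F2 median was -0.01. DCN and IGF2 had the smallest p, with 33.2 to 64.1 and 28.6 to 132 CPM in F1 control against 10.5 to 33.6 and 16.04 to 35.9 CPM in F1 sGC animals, and their differences of 1.05 ± 0.301 and 1.47 ± 0.454 had adjusted p of 0.0841 and 0.104. The summed level of the list was 932 to 1540 CPM in F1 control, 732 to 1290 CPM in F1 sGC, 831 to 1020 CPM in F2 control and 764 to 1170 CPM in F2 sGC animals. Astrocyte markers went the opposite way. Of 10 genes 9 had a negative difference (median -0.21), and the summed level was 10000 to 13000 CPM in F1 control, 11400 to 18200 CPM in F1 sGC, 11900 to 13500 CPM in F2 control and 11900 to 14100 CPM in F2 sGC animals. Slc4a4 (-0.49, adjusted p = 0.0596) and SLC1A2 (-0.44, adjusted p = 0.161), a bicarbonate and a glutamate transporter, had the smallest p on this list.

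Oligodendrocyte markers had a positive difference in 8 of 9 genes (median 0.25, summed level 1970 to 2730 CPM in F1 control and 1770 to 2570 CPM in F1 sGC), microglia markers a negative one in 7 of 8 (median -0.18, 225 to 278 and 259 to 365 CPM) and endothelial markers in 7 of 9 (median -0.14, 443 to 524 and 483 to 623 CPM). Without libraries 32, 33 and 35 the medians were 0.15, -0.06 and 0.0047 for these 3 lists, -0.05 for astrocytes and 0.61 for meningeal fibroblasts. Choroid plexus and ependymal (4 genes, 0.35), interneuron (10 genes, 0.17), striatal (8 genes, 0.19) and dentate granule cell markers (8 genes, 0.06) had positive medians, and those of pyramidal cells (9 genes, -0.03) and oligodendrocyte precursors (6 genes, -0.05) were near 0. Of blood markers, ALAS2 of erythroid heme synthesis was the 1 gene tested (1.85, adjusted p = 0.0539), at 0.701 to 2.14 CPM in F1 control, 0.169 to 1.10 CPM in F1 sGC, 0.713 to 1.87 CPM in F2 control and 1.03 to 3.37 CPM in F2 sGC animals. KLF1, the erythroid transcription factor, was among the 28 positive genes and was picked out after its values were seen (1.10, adjusted p = 0.0424, at 0.604 to 2.06 CPM over all libraries). The part of these cell types in the 135 genes was not tested.

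The differences moved with the span of the gene, taken from RefSeq for 93.1% of the tested genes. The median span was 137.4 kb for the called negative genes, 7.12 kb for the called positive genes and 28.5 kb over all. With the genes put in 5 groups by span, the median difference in the group of the shortest was 0.077, with 15 positive and 2 negative calls, and in the group of the longest it was -0.084, with 0 positive and 67 negative calls. The trend lay in F1, where the medians ran from -0.058 to 0.073, and less in F2, where they ran from 0.021 to -0.01. Per library, the median log2 level of the longest minus the shortest group, relative to the control mean of its generation, was 0.067 to 0.15 in the F1 sGC libraries and -0.013 to 0.0064 in F1 control libraries, without overlap. It was -0.08 to 0.064 in F2 control and -0.08 to 0.042 in F2 sGC libraries, which overlapped. When a smooth trend with span was taken out of each library, 13 genes were called, 3 positive and 10 negative, where the same 10571 genes without that step gave 124.

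All 13 were among the 135. GABRG1 (-0.64, adjusted p = 0.00199), KCNA2 (-0.36, adjusted p = 0.00685), PIK3C2A (-0.55), CADM2 (-0.33), ARHGEF12 (-0.32), KCNS1 (-0.47), KAT6A (-0.33), PIKFYVE (-0.35) and LCTL (-1.38) remained negative, as did PYGO1 (-0.35), and NTSR1 (0.74), WNT11 (0.53) and RALY (0.24) remained positive. PYGO1, a relative of PYGO2, and RALY, an RNA-binding protein, were named because this step left them. The median difference of the respiratory chain genes was 0.02 after it, over the 33 that have a span, that of cytosolic ribosomal proteins turned to -0.04, and those of meningeal fibroblast and astrocyte markers were 0.61 and -0.19.

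**Figure D4:**
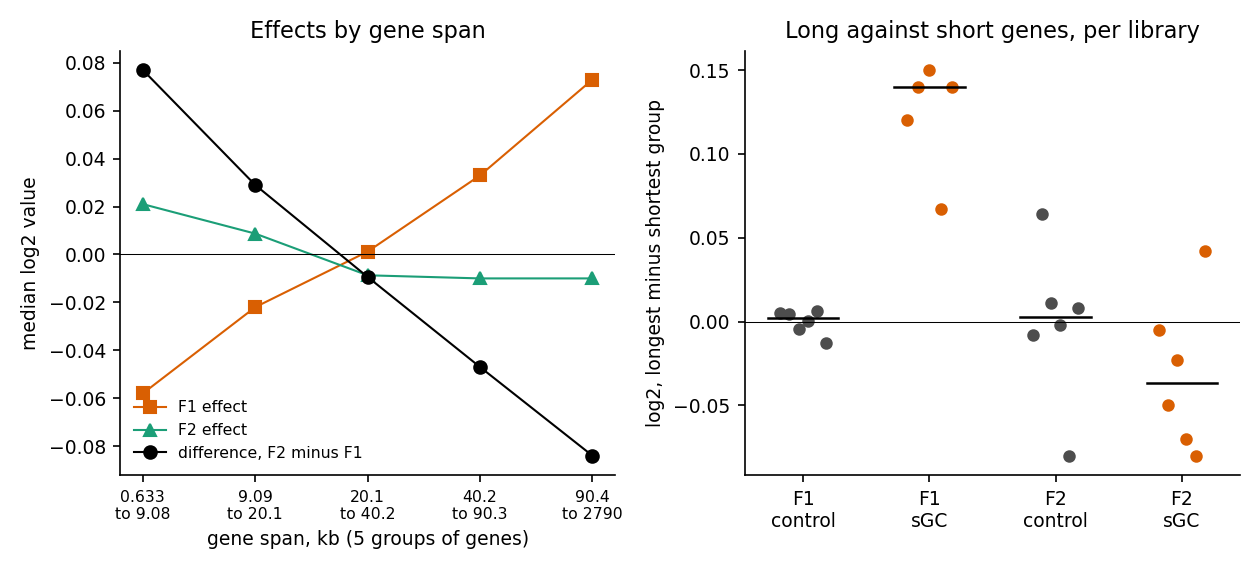
Left, median log2 effect in F1 and F2 and median difference in 5 groups of genes by span in kb. Right, median log2 level of the longest minus the shortest group of genes per library (points, bar for the median), relative to the control mean of its generation, where the 5 F1 sGC libraries (0.067 to 0.15) lie above all F1 control libraries.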

How the data were processed

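Hippocampal mRNA libraries (TruSeq V2) were sequenced as single reads and counted on genes by the authors after alignment with TopHat2, according to their processing notes; the genome build of the RNA counts is not given in the sources used here. The deposited tables hold raw counts per gene and library from the authors, without normalization. They also hold the authors' own comparison within each generation (log2 fold change, average level, likelihood ratio, p-values and dispersion), and the methylation tables hold only such comparisons. Neither was used. The kit does not mark strand, so overlapping genes cannot be told apart, and near-identical copies may share reads.

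Counts of genes in both the F1 and the F2 table were fitted together with edgeR 4.0.16 in R 4.3.3, with a mean for each of the 4 groups, filterByExpr and TMM scaling. The interaction and both effects were tested with the quasi-likelihood test and Benjamini-Hochberg adjustment over all 11352 genes at 0.05. Levels are CPM scaled by TMM, and lists were described by counts and medians, with no set test. Alternatives used limma 3.58.1, DESeq2 1.42.0, other scalings and filters, other sets of libraries and replicate blocks. Figures were drawn with matplotlib 3.10.9. The interaction fit was run on simulated counts in which a random set of genes was changed in the F1 sGC libraries alone. The change was larger than the median difference of the calls, and no span trend was put in. The simulation therefore cannot show how calls of the observed size behave under such a trend. Replicates were separate animals, and pairs of libraries within a group differed beyond counting error (chi-square per degree of freedom 2.78 to 29.1 over 55 pairs). Deviations of 22 equally numbered pairs of libraries correlated between -0.29 and 0.29. No correlation of unequally numbered pairs is given beside them, so this range cannot decide whether equal numbers mark related libraries.

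The genes named were the 15 positive and 15 negative calls with the smallest p, up to 4 called members of each of 43 lists (or the 2 with the smallest p, as values), and NR3C1, NR3C2, FKBP5, TSC22D3 and SGK1. LCTL, HMOX1, ACOT8, KLF1, PYGO1, RALY, ATRX, WHSC1L1 and NDUFAB1 were added after their values were seen. Genes named only for a call in an alternative fit or for a control gap also stand outside this rule. No gene passed the test in opposite directions in both generations. The comparison, lists and genes were chosen with earlier results of these data known. Gene spans came from the RefSeq annotation of mCavPor4.1, matched by symbol, and no coordinates were taken from it. The list of mitochondrially encoded genes had no gene in both tables.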

Additional observations from a re-analysis of the deposited data

Results flagged for a closer look

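Of the tests of the difference between the F2 and the F1 effect, 135 passed with edgeR's quasi-likelihood test at an adjusted p below 0.05. The named genes among them are given here by their log2 difference. Negative values, with the effect higher in F1, were found for LCTL (-1.34), GABRG1 (-0.70), COL4A3 (-0.63), PIK3C2A (-0.61), KCNJ6 (-0.60), ERICH3 (-0.52), DOK6 (-0.47), RAB3C (-0.47), CADM2 (-0.45), GRM5 (-0.44), NRXN3 (-0.43), KCNS1 (-0.41), PIKFYVE (-0.41), KAT6A (-0.41), ARHGEF12 (-0.40), RORA (-0.38), ATP6AP1L (-0.37), TULP4 (-0.32), DENND4A (-0.30), ITGB8 (-0.30), KCNA2 (-0.29), ZNF106 (-0.29), MYO5A (-0.28), CAMSAP2 (-0.28), KIF5A (-0.28), RAPGEF2 (-0.25), DNAJB14 (-0.25), PCMTD1 (-0.24), KCND3 (-0.23). Positive values were found for KLF1 (1.10), S100A11 (0.86), NTSR1 (0.71), ZFP57 (0.67), IER5L (0.62), NFKBIE (0.61), WNT11 (0.51), CCK (0.37), UBE2S (0.30), SNAPC2 (0.30), PDIA6 (0.28), HMOX1 (0.27), TMEM222 (0.24), ACOT8 (0.24), MAP1LC3A (0.24), PARD6A (0.24), CBX1 (0.23), PYGO2 (0.22), SSU72 (0.21).

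Among 412 groups of libraries, 4 for each of 103 named genes, 29 held a library far from the others of its group by Dixon's test at the 95% level, where chance alone marks about 1 group in 20. In F2 control animals these were TMEM222 in replicate 4 (43.5 CPM, lowest), TAC1 in replicate 6 (18.6 CPM, highest), LCTL in replicate 1 (9.34 CPM, highest), HMOX1 in replicate 1 (23.5 CPM, lowest). In F1 control animals these were CCK in replicate 5 (80.3 CPM, highest), ARHGEF12 in replicate 1 (130 CPM, lowest), ERICH3 in replicate 3 (38.1 CPM, highest), JUN in replicate 4 (67.0 CPM, lowest), KCNS1 in replicate 2 (14.7 CPM, lowest), RPS4X in replicate 2 (104 CPM, lowest), RPL19 in replicate 6 (264 CPM, highest), MRPS21 in replicate 2 (103 CPM, lowest), ZFP57 in replicate 5 (53.8 CPM, highest), CSF1R in replicate 3 (87.2 CPM, lowest). In F2 sGC animals these were DENND4A in replicate 6 (55.1 CPM, highest), TULP4 in replicate 6 (185 CPM, highest), TXNIP in replicate 2 (56.5 CPM, lowest), DNAJB14 in replicate 6 (394 CPM, highest), SF3B6 in replicate 2 (40.95 CPM, highest), IL16 in replicate 4 (6.13 CPM, highest), SST in replicate 6 (44.8 CPM, lowest), ALAS2 in replicate 3 (3.37 CPM, highest), NR3C2 in replicate 3 (142 CPM, lowest), TSC22D3 in replicate 5 (81.8 CPM, lowest). In F1 sGC animals these were RAPGEF2 in replicate 4 (255 CPM, highest), NRXN3 in replicate 4 (33.4 CPM, lowest), MBD5 in replicate 4 (47.7 CPM, lowest), CNP in replicate 1 (716 CPM, highest), P2RY12 in replicate 4 (70.1 CPM, highest).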

How the results depend on the processing

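The 135 genes kept the sign of their difference in each of the 39 fits where they were tested, and 45 of them passed the threshold in all 23 fits that left out 1 library. No gene passed in F2 in any of these joint fits. The number of genes called depended on the choices, and where it moved the cause was not tested unless stated. The likelihood ratio test called 264 genes (67 positive, 197 negative) and DESeq2 339 (101 and 238). Library totals without TMM called 91 (42 and 49). Fitting all 36 RNA libraries together, which takes the spread from F3 as well, called 33 (8 and 25), and leaving out libraries 32, 33 and 35 called 388 (84 and 304). Limma voom, a robust fit, DESeq2 size factors and no or a stricter filter called 127 to 140 genes.

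Leaving out 1 library gave 47 to 274 genes with a difference, 9 to 64 positive and 38 to 210 negative, and 482 to 1029 genes with an effect in F1. The count moved more than 1.5 times, to 62, 72, 72 and 71 without F1 control replicates 1, 2, 5 and 6, to 204, 84, 86 and 252 without F1 sGC replicates 1, 2, 3 and 4, to 47, 70, 76, 208 and 80 without F2 control replicates 2, 3, 4, 5 and 6, and to 88, 69, 63, 56, 66 and 274 without F2 sGC replicates 1 to 6. Of 48 named genes that were called, 31 stayed past the threshold without any single library and none changed sign. The F1 count fell to 510 without F1 control replicate 5 and to 482 without F1 sGC replicate 5.

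Replicate numbers come from the labels, which do not say whether equal numbers mark related animals, and 4 of 22 equally numbered pairs correlated above 0.1. With a replicate block within each generation 41 genes were called (3 positive, 38 negative), and with a replicate block over both generations 130 (23 and 107).

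These alternatives were chosen after seeing the data. Removing the trend with gene span called 13 genes (3 and 10) and 308 in F1, against 124 for the same genes without that step. Leaving out the genes with a control gap above 2-fold called 140. A weight for each group in limma voom called 60 (13 and 47), with 301 in F1. At this depth genes near 1 CPM, such as KLF1 and ALAS2, rest on few reads.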
